A study of Mus musculus with 18 samples.

Results

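The difference between genotypes averaged over 3 times was described here for cultured mouse sensory neurons of the dorsal root ganglia (DRG). These are the clusters of cell bodies that flank the spinal cord. Cultures carried either 2 wild-type copies of Dynlrb1 (WT) or 1 wild-type and 1 tm1a copy (HET, heterozygous Dynlrb1 tm1a/+), and each genotype was collected at 12, 24 and 48 h with 3 biological repeats per time. All 18 samples of the series enter the comparison. Repeats are numbered in the titles (1, 2, 5 for both 12 and 24 h; 1, 2, 3 for 48 h), which gives 9 HET-minus-WT differences between cultures of the same time and number. For each of 17198 genes the averaged difference is the mean of those 9 values on the scale log2(normalized count + 1), where the normalized count is the authors' scaled read count per gene. A gene is said to keep one sign when all 9 differences point the same way. Age, strain and the number of animals behind a culture are not given in the sources used here. Whether cultures of 1 number at different times came from the same animals is not given either. The main fits and the permutation treat all 18 cultures as independent, so the p-values measure the spread between these samples only. They may be too small if the times share animals.

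Dynlrb1 encodes a roadblock light chain of cytoplasmic dynein. Dynein is the motor that walks toward the minus ends of microtubules, and in a sensory axon it brings endosomes, survival signals and injury signals back to the cell body. Heavy chains move the complex, intermediate and light intermediate chains hold it together, and the light chains dimerise on the intermediate chains; dynactin and a set of adaptors load the cargo. A tm1a allele is a knockout-first insertion that traps the transcript of the targeted gene in every cell that carries it.

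Both genotypes carried high levels of pan-neuronal transcripts, with a summed level of 18 marker genes between 5322 and 7290 FPKM (fragments scaled by transcript length and library size) over the 18 samples. Markers of Schwann cells summed to between 512 and 808 FPKM in WT and between 568 and 799 in HET, and fibroblast markers to between 490 and 1044 in WT and between 473 and 815 in HET, so the cultures held non-neuronal RNA throughout. In such bulk samples, fewer cells of a type and less RNA per cell cannot be told apart. Same-numbered cultures were not alike in every respect. The summed level of Xist and Tsix, transcribed from the X inactivation centre in female cells, was 0.07 FPKM in the WT culture and 9.3 FPKM in the HET culture numbered 3 at 48 h, and 20.3 against 4.84 FPKM in those numbered 2. At 12 and 24 h it was of like size within each number, over both genotypes and both times. It ran from 25.3 to 51.0 FPKM for number 1, from 2.10 to 4.70 FPKM for number 2 and from 0.10 to 0.22 FPKM for number 5.

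Averaged over the 3 times, 3 genes of 17198 passed an adjusted p of 0.05 (0.0174% of genes tested): Dynlrb1 was lower in HET (0.00581%), and En2 and Slc15a2 were higher (0.0116%). Dynlrb1 (ENSMUSG00000047459, chr2:155236533-155250277 on the plus strand of GRCm38) was measured in WT at normalized counts of 6674, 6589 and 5321 at 12 h, 5702, 5229 and 6427 at 24 h and 5995, 5677 and 6372 at 48 h. In HET its normalized counts were 3298, 4087 and 3414 at 12 h, 2716, 3811 and 3085 at 24 h and 3314, 3482 and 3243 at 48 h. Every HET culture lay below every WT culture. Per unit length the mean level was 211 FPKM in WT and 119 FPKM in HET. The averaged difference fell by 0.83 on the log2 scale (SE 0.071), which places HET at 56.3% of WT, with an adjusted p of 2.85e-05 in limma. Permuting genotype within each time gave an exact two-sided p of 0.00025 over 8000 arrangements, the smallest that design can give. The 3 times were alike, with log2 differences of -0.78, -0.86 and -0.84 in order of time (SE 0.12 each), and the test of a change with time gave an adjusted p of 0.964.

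En2 (ENSMUSG00000039095, chr5:28165694-28172166, plus strand) encodes Engrailed-2, a homeodomain transcription factor known from midbrain and hindbrain patterning. Its normalized counts in WT were 3.97, 4.89 and 2.92 at 12 h, 9.72, 10.6 and 9.50 at 24 h and 14.1, 8.83 and 16.4 at 48 h. In HET they were 43.2, 35.2 and 72.4 at 12 h, 37.2, 22.2 and 55.5 at 24 h and 37.8, 19.5 and 59.0 at 48 h. All 9 HET cultures lay above all 9 WT cultures, although the level was low, at a mean of 0.061 FPKM in WT and 0.289 FPKM in HET. The averaged log2 difference was 2.16 (SE 0.24, adjusted p 6.41e-04, exact permutation p 0.00025), or 3.33, 1.75 and 1.40 in order of time. As background, knockout-first cassettes of the tm1a kind carry a splice acceptor taken from En2, and gene-level values do not tell reads from the cassette apart from reads of the resident gene; the part of the cassette in the result was not tested.

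Slc15a2 (ENSMUSG00000022899, chr16:36750177-36784962, minus strand) encodes PEPT2, a proton-coupled transporter of small peptides. In WT its normalized counts were 27.5, 27.1 and 56.3 at 12 h, 12.0, 19.96 and 27.0 at 24 h and 15.2, 30.9 and 127 at 48 h. In HET they were 506, 335 and 618 at 12 h, 302, 144 and 331 at 24 h and 183, 164 and 44.6 at 48 h. The groups were apart at 12 and 24 h and overlapped at 48 h, where number 3 alone had more Slc15a2 in WT than in HET. The averaged log2 difference was 2.94 (SE 0.37, adjusted p 0.00201, exact permutation p 5e-04), with 8 of 9 pairs higher in HET and the 48 h pair numbered 3 at -1.49. Without the HET culture or the WT culture numbered 3 at 48 h, Slc15a2 still passed, as did Dynlrb1 and En2 in each of the 18 fits that left out 1 culture.

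**Figure D1:**
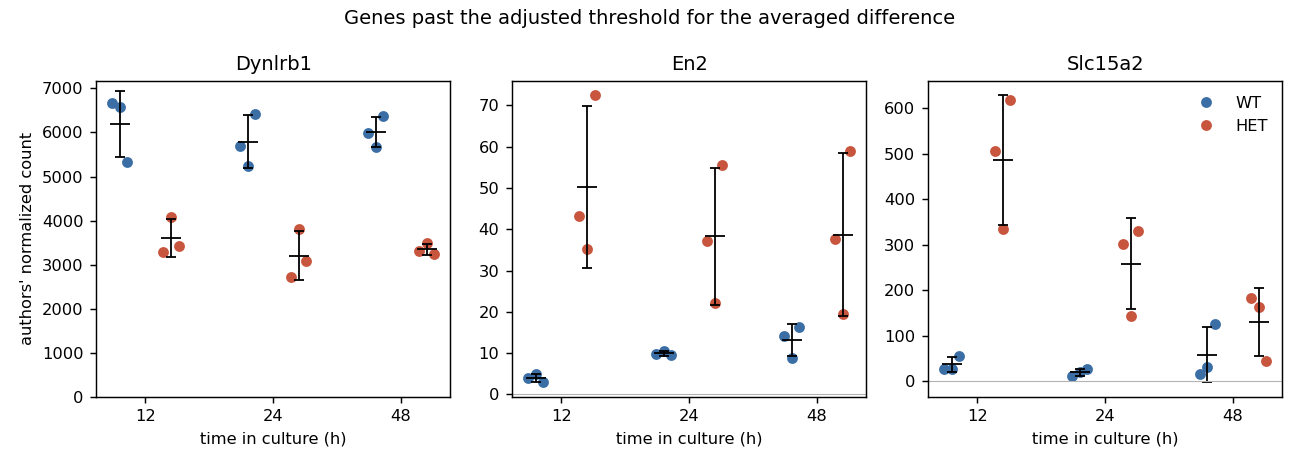
Normalized counts (linear axes) of Dynlrb1, En2 and Slc15a2 at 12, 24 and 48 h in WT (blue) and HET (red); each point is 1 culture, and the black bar and whiskers are the group mean and SD (n = 3). HET cultures lie below all WT cultures for Dynlrb1 and above all for En2, while for Slc15a2 1 HET culture at 48 h (44.6) falls under 1 WT culture (127).

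The 3 calls differed in how much they leaned on single times. Averaging only 24 and 48 h left Dynlrb1 past the threshold and not the others, at log2 differences of 1.58 for En2 and 2.55 for Slc15a2 (adjusted p 0.778 for both). Averaging only 12 and 48 h left Dynlrb1 and En2, with Slc15a2 at 2.59 (adjusted p 0.13). Averaging only 12 and 24 h left all 3. In the authors' deposited table, whose tests were run time by time, the log2 fold change of Slc15a2 was 3.71, 3.71 and 1.18 in order of time, with adjusted p of 5.908e-06, 1.253e-05 and 0.2003. For En2 the authors' deposited table gives 3.64, 1.93 and 1.56 at the same times, with adjusted p of 4.17e-07, 0.3174 and 0.02634.

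Without the adjustment for multiple tests, 2315 genes had p under 0.05 for the averaged difference (13.5%), 916 higher in HET (5.33%) and 1399 lower (8.13%). The test of a genotype difference that varies with time called 0 genes (0.0%) after adjustment in limma and 1760 genes (10.2%) at an unadjusted p under 0.05. Cultures were not paired by number in these fits. A fit that pairs them called more genes for both the averaged difference and the change with time, as given at the end of the text.

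A criterion that needs no pairing by number was applied next: the 3 HET cultures had to lie wholly on one side of the 3 WT cultures, and on the same side at 12, 24 and 48 h. It held for 9 genes (0.0523%), 3 higher in HET (0.0174%) and 6 lower (0.0349%), against 2592 genes at 12 h alone (15.1%), 963 at 24 h alone (5.6%) and 4124 at 48 h alone (24.0%). Besides Dynlrb1 and En2, the 9 were Gm5886, Rsph3b, Glt28d2, Kif19a, Lor, Il1rl2 and Msh5; all but Rsph3b are named because they met this criterion, which was chosen after their values were seen. Apart from Dynlrb1, each had a mean normalized count below 636, the median of all genes. None but Dynlrb1 and En2 passed the adjusted threshold.

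Gm5886, an unnamed gene model, came closest. Its normalized counts in WT were 11.02, 13.1 and 11.1 at 12 h, 13.9, 8.80 and 10.8 at 24 h and 9.36, 15.3 and 15.2 at 48 h, and in HET 29.3, 35.4 and 27.0, then 22.3, 18.3 and 24.4, then 21.8, 20.9 and 17.4. All HET cultures were above all WT cultures, and the log2 difference was 1.30, 0.91 and 0.59 in order of time. The averaged difference was 0.93 (SE 0.16, adjusted p 0.113). After quantile normalization Gm5886 was the fourth gene past the threshold.

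Kif19a encodes a kinesin that shortens the microtubules of cilia. Its 9 normalized counts ran from 25.5 to 46.0 in WT, median 32.9, and from 11.7 to 28.1 in HET, and its averaged log2 difference was -0.80 (SE 0.17, adjusted p 0.31). Il1rl2, the receptor for interleukin-36, ran from 36.9 to 70.5 in WT and from 17.4 to 49.1 in HET, with an averaged difference of -0.73 (SE 0.15). Msh5, a meiotic recombination protein, stood at -0.65 (SE 0.15), Lor, the cornified envelope protein loricrin, at -0.73 (SE 0.17), and the glycosyltransferase gene Glt28d2 at -1.04 (SE 0.23), none of them past the threshold. The groups of these 5 genes were apart at each time but their ranges over all times met. Rsph3b, a radial spoke protein of cilia with a near-identical copy nearby whose reads may be shared, ran from 339 to 396 in WT and from 396 to 509 in HET, with an averaged difference of 0.25 (SE 0.066, adjusted p 0.31).

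The count of 9 can only stay or rise when a culture is left out, since fewer cultures then have to lie apart. How much of a rise is due to that alone was not tested. At 24 h the count was 49 without the HET culture numbered 1, and 16 and 20 without HET numbers 2 and 5 in turn. It was 20, 13 and 22 without WT numbers 1, 2 and 5 at 24 h in turn. Leaving out WT number 5 at 12 h gave 15, HET number 1 at 48 h 15 and WT number 3 at 48 h 16. With 24 h left out altogether, 416 genes (2.42%) had groups apart in the same direction at both 12 and 48 h.

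One sign in all 9 pairs was kept by 140 genes (0.814%), 57 higher in HET (0.331%) and 83 lower (0.483%). At single times, all 3 pairs had one sign for 6001 genes at 12 h (34.9%), 3620 at 24 h (21.0%) and 8846 at 48 h (51.4%). How many genes would meet this rule, or the criterion above, were the 3 times unrelated was not tested. The counts alone therefore do not show differences that persist. Because this rule and the averaged test read the same values, the sizes below describe the genes and do not test them again. The higher genes were mostly abundant with small differences, at a median normalized count of 3003 and a median difference of 0.19, from 0.058 to 2.16. The lower genes were mostly scarce with larger differences, at a median normalized count of 203 and a median difference of -0.44, from -1.27 to -0.084. At the edge of the rule, 531 genes were higher in 8 of 9 pairs and 644 in 1 of 9.

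The split between directions followed the scaling. On the authors' plain adjusted columns, a second deposited scaling of the same counts, 119 genes kept one sign upward and 74 downward, so that 61.7% were higher in HET; after quantile normalization 62.8% were higher, against 40.7% on the normalized counts. The median difference of all genes was -0.021, -0.007 and 0.010 under the 3 scalings. Under all 3 of them 64 genes kept one sign (0.372%), 29 higher (0.169%) and 35 lower (0.204%). Of the 23 genes described next, all of the 12 higher ones other than Cpxm2 were in that set, and among the lower ones Dynlrb1, Fign, Ephb3, Nr2f1 and Tbx3.

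The 12 higher genes of largest averaged difference, among those with a mean normalized count of at least 50, were led by Igf2 and Klk8. Igf2, the paternally expressed insulin-like growth factor 2, ran from 49.7 to 1084 in WT, median 230, and from 175 to 1179 in HET, median 369, so that the groups overlapped. Its averaged log2 difference was 0.78 (SE 0.41, adjusted p 0.418), but the 9 differences ran from 0.075 to 3.42, and the largest was the 48 h pair numbered 3, in which WT had 49.7 and HET 540. The average was 0.61 without the HET culture of that pair, 0.65 without the WT culture and 0.32 without 48 h. In the same pair the 13 markers of neutrophils and red cells summed to 6.49 FPKM in WT and 84.8 FPKM in HET; their part in the result was not tested.

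Klk8, the serine protease neuropsin, ran from 32.5 to 86.6 in WT and from 52.4 to 98.2 in HET, with an averaged difference of 0.70 (SE 0.19, adjusted p 0.31) and pair differences from 0.15 to 1.54. The groups were apart at 2 of 3 times. Cpxm2, a secreted carboxypeptidase-like protein, stood at 0.61 (SE 0.14), and Cysltr2, the cysteinyl leukotriene receptor present on itch-sensing neurons, at 0.59 (SE 0.15), with 83 to 200 normalized counts in WT and 138 to 297 in HET. Tmem45b, a transmembrane protein, was the most abundant of the 12, at a mean of 83.3 FPKM in WT and 117 FPKM in HET. Its averaged difference of 0.53 (SE 0.16) combined differences of 0.57, 0.066 and 0.94 in order of time.

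The other 7 differed by less. Sh2d4a, an SH2-domain adaptor, stood at 0.49 (SE 0.15), the RNA-binding splicing regulator Celf6 at 0.28 (SE 0.082), the antisense transcript Gm10516 at 0.27 (SE 0.072) and the small Maf factor Mafk at 0.26 (SE 0.12). Bzw2, a translation regulator, stood at 0.24 (SE 0.12) and Golga7b, a palmitoylation cofactor, at 0.24 (SE 0.091), while Rsph3b is given above. Without the HET culture numbered 3 at 48 h, Mafk stood at 0.13 and Bzw2 at 0.12. The counting is not stated to use strand, so Gm10516 cannot be told apart from a gene it overlaps. None of the 12 passed the adjusted threshold.

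Of the lower genes with a mean normalized count of at least 50, 11 are described. Tfap2a (AP-2 alpha, of neural crest and skin) had the largest difference of the 11. Its normalized counts in WT were 78.6, 93.2 and 103 at 12 h, 56.2, 107 and 52.2 at 24 h and 70.5, 63.5 and 38.8 at 48 h, and in HET 37.1, 19.5 and 41.0, then 33.0, 47.5 and 27.1, then 65.8, 35.7 and 28.3. The groups were apart at 12 and 24 h and overlapped at 48 h. The averaged log2 difference was -0.97 (SE 0.22, adjusted p 0.31), with -1.52, -0.94 and -0.45 in order of time.

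Nr2f1, the nuclear receptor COUP-TF1, stood at -0.57 (SE 0.20) and the T-box factor Tbx3 at -0.57 (SE 0.23), or -0.33 without the HET culture numbered 3 at 48 h. Their normalized counts overlapped between genotypes over all times, from 117 to 307 in WT and 57.2 to 193 in HET for Nr2f1. At 24 h 1 pair of Nr2f1 differed by only -0.0011, as did 1 pair of Grid1 by -0.00062, and differences of that size do not resolve a sign.

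Palld (palladin, an actin-bundling protein) stood at -0.62 (SE 0.19), Nav2 (neuron navigator 2, which binds microtubule ends) at -0.60 (SE 0.16), Fign (fidgetin, which severs microtubules) at -0.59 (SE 0.20) and Plekhh2, which binds actin, at -0.51 (SE 0.18). Nav2 ran from 1453 to 3996 normalized counts in WT and from 944 to 1763 in HET, with -1.13 at 12 h and -0.27 at 48 h. The ephrin receptor Ephb3 stood at -0.59 (SE 0.15) and the delta-type glutamate receptor Grid1 at -0.52 (SE 0.16). The unnamed transcript A630089N07Rik stood at -0.52 (SE 0.16). Of the 11 lower genes only Dynlrb1 passed the adjusted threshold.

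**Figure D2:**
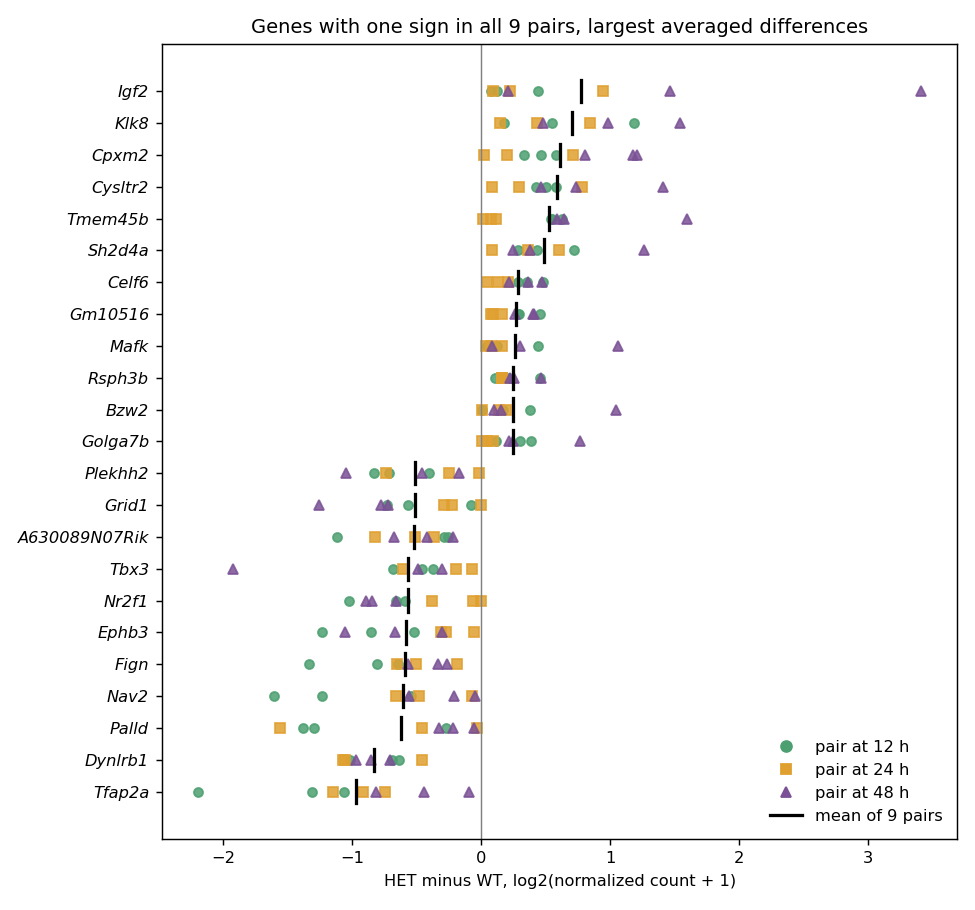
HET minus WT on the log2(normalized count + 1) scale for the 23 described genes that kept one sign in all 9 pairs. They are those of largest averaged difference described among such genes with a mean normalized count of at least 50. Each symbol is 1 pair of cultures, coloured by time, and the black bar is the mean of 9. Pairs at 24 h lie nearest to 0 for most genes, Dynlrb1 sits at -0.83 with little spread, and single pairs at 48 h stand far out for Igf2 (3.42) and Tbx3 (-1.93).

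Spread was ranked among one-sign genes with a mean normalized count of at least 50. Dynlrb1 was one of the 5 whose 9 differences were tightest for their size, from -1.07 to -0.46. The other 4 were Cntnap5b (a contactin-associated adhesion protein, -0.44, SE 0.11), Adcyap1r1 (the receptor for the neuropeptide PACAP, -0.51, SE 0.19), Klhl2 (a ubiquitin ligase adaptor, 0.19, SE 0.052) and Stat6 (a cytokine-activated transcription factor, 0.14, SE 0.042). The normalized counts of Stat6 ran from 6177 to 7144 in WT and from 6832 to 8084 in HET, and 8 of its 9 pair differences lay between 0.069 and 0.18. The 5 loosest of the same set were Igf2, Bzw2, Tmbim6 (0.17, SE 0.092), Hip1 (-0.27, SE 0.15) and Rnf185 (0.19, SE 0.090). In each of these 5 the 48 h pair numbered 3 was the farthest from 0. Without the HET culture of that pair, Tmbim6 stood at 0.082, Hip1 at -0.11 and Rnf185 at 0.097.

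The count depended most on the 24 h cultures. When they were left out, 2519 genes kept one sign in the other 6 pairs (14.6%), 1150 higher (6.69%) and 1369 lower (7.96%), against 378 (2.2%) without 12 h and 705 (4.1%) without 48 h. At 24 h itself, 140 of those 2519 genes had all 3 pairs in the same direction, 277 had all 3 in the opposite direction, and the mean 24 h difference had the same direction in 46.0%. The median 24 h difference, read in the direction of the other times, was -0.010. Among the 140 genes the difference was smallest at 24 h for 99, at 48 h for 28 and at 12 h for 13, and the median size was 0.39, 0.19 and 0.35 in order of time.

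**Figure D3:**
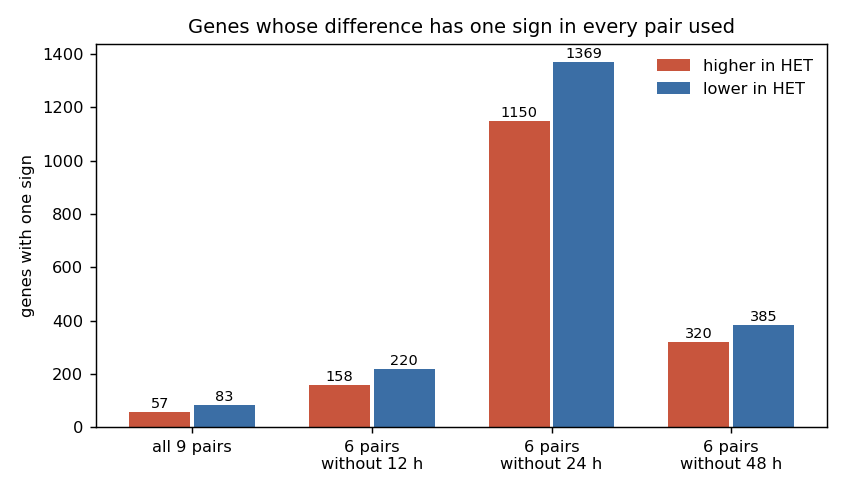
Number of genes (linear axis) whose HET-minus-WT difference kept one sign in all 9 pairs or in the 6 pairs that remain when 1 time is left out, split into higher (red) and lower (blue) in HET. The bars stand at 57 and 83 with all pairs and at 1150 and 1369 without 24 h.

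The count was most sensitive to 1 pair. Without the 24 h pair numbered 1, 726 genes kept one sign, against 300 without number 2 and 270 without number 5 at 24 h, 215 without number 3 at 48 h and between 180 and 191 without each of the other 5 pairs. Across genes, the differences of that pair correlated at r = -0.23 with the mean difference of the 12 and 48 h pairs, where the other 8 pairs gave r between 0.029 and 0.28 with the pairs of the other times. These are correlations over 17198 genes within shared libraries, not independent observations.

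Gene lists were read for the same average. They were chosen with earlier results of these data known, and no list member passed the adjusted threshold, so each is described by its counts and median beside those of all genes. Over all genes 43.9% had an averaged difference above 0 and the median was -0.021. At 12, 24 and 48 h the share of all genes above 0 was 47.2%, 52.9% and 45.2%. At an unadjusted p under 0.05, the share of all genes was 5.33% for higher and 8.13% for lower.

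Markers of non-peptidergic nociceptors, the small C-fibre neurons of skin that sense pain and itch, lay highest among the neuronal lists. All 19 measured markers were above 0, 14 of them with an unadjusted p under 0.05, and their median difference was 0.58. By time the median was 0.50, then -0.11, then 1.36, with 19, 4 and 19 of 19 members above 0. Without 24 h the median was 0.93, without 48 h it was 0.21, and without the HET culture numbered 3 at 48 h it was 0.45. None of the 19 kept one sign in all 9 pairs.

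Mrgprd, the Mas-related receptor of polymodal nociceptors, ran from 73.1 to 6167 normalized counts in WT, median 1845, and from 618 to 13030 in HET, median 2540. Its averaged difference was 1.21 (SE 0.39, adjusted p 0.31), with 0.80, -0.23 and 3.05 in order of time. The 48 h pairs stood at 1.63, 3.50 and 4.01 for numbers 1, 2 and 3. Mrgpra3, an itch receptor of a family whose close copies may share reads, stood at 1.15 (SE 0.44), and the itch-neuron peptide Sst (somatostatin) at 1.05 (SE 0.28). Scn11a, the persistent sodium channel Nav1.9, was far more abundant at 78.0 FPKM in WT and 109 FPKM in HET, and stood at 0.56 (SE 0.16). Osmr, the oncostatin M receptor, differed by like amounts at each time, 0.18, 0.24 and 0.16, and averaged 0.19 (SE 0.073) with 8 of 9 pairs above 0. These 5 genes were chosen after their values were seen.

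Peptidergic nociceptor markers, of the neurons that release CGRP and substance P, lay on the same side of 0 but nearer to it. Of 10, 9 were above 0, 5 with an unadjusted p under 0.05, and 1 was lower at that level; the median was 0.29, or 0.28, 0.008 and 0.64 by time. Calcb, the gene of CGRP beta, stood at 0.57 (SE 0.21), Tac1, the precursor of substance P, at 0.52 (SE 0.18) and the heat and capsaicin channel Trpv1 at 0.33 (SE 0.092), none past the threshold. Calcb, Tac1 and Trpv1 were named after their values were seen. Pan-neuronal markers had a median of 0.032 with 10 of 18 above 0, and markers of large-diameter neurons and proprioceptors a median of -0.066 with 5 of 17 above 0. Slc17a7, the vesicular glutamate transporter VGLUT1 of those large neurons, was the only nociceptor, proprioceptor or pan-neuronal marker with one sign in all 9 pairs, at -0.25 (SE 0.12, adjusted p 0.39). Heg1, a further member of that list named after its value was seen, stood at -0.43 (SE 0.11).

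Sterol and fatty acid synthesis genes, which SREBP transcription factors are known to drive when membrane sterol is low, were above 0 in 29 of 32 members, 17 of them with an unadjusted p under 0.05. Their median difference was 0.20, or 0.21, 0.017 and 0.41 in order of time, with 27, 22 and 30 of 32 members above 0. The median over members was positive in 7 of 9 pairs and below 0 at 24 h in numbers 1 and 5, at -0.14 and -0.044. The list summed to between 992 and 1729 FPKM in WT and between 1184 and 2131 FPKM in HET, so the groups overlapped. Without the HET culture numbered 3 at 48 h the median was 0.20, and without 48 h it was 0.12.

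Scd1, the desaturase that makes monounsaturated fatty acids, led the list. It ran from 7569 to 28640 normalized counts in WT, median 16460, and from 12910 to 40460 in HET, median 23270, with an averaged difference of 0.52 (SE 0.12, adjusted p 0.31) and 1.12 at 48 h. Tm7sf2 (a sterol reductase) stood at 0.47 (SE 0.13), Fdps (farnesyl diphosphate synthase) at 0.42 (SE 0.12) and Acat2 (acetoacetyl-CoA formation) at 0.41 (SE 0.12). Hmgcs1, the HMG-CoA synthase of the cytosol, stood at 0.22 (SE 0.095), and the regulator Srebf1 at -0.071 (SE 0.062). The members named here were chosen after their values were seen.

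The SREBP factors are known to bind the sterol regulatory element, so the 250 bases before each start site in RefSeq were searched on both strands for it, spelled TCACNCCAC. Of the 32 genes, 22 had an entry, and 1 of 22 (4.55%) held the letters, against 331 of 27025 promoters (1.22%). It was Hmgcs1, shown because it is the single member with a match. The stretch is chr13:119690184-119690252 of GRCm38.p6 on the plus strand, 5′ to 3′ along the gene, with the element in capitals, 128 bases before the start site:
Hmgcs1: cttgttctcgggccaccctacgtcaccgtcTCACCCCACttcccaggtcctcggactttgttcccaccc
The match is a description of letters and says nothing of binding in these cells.

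**Figure D4:**
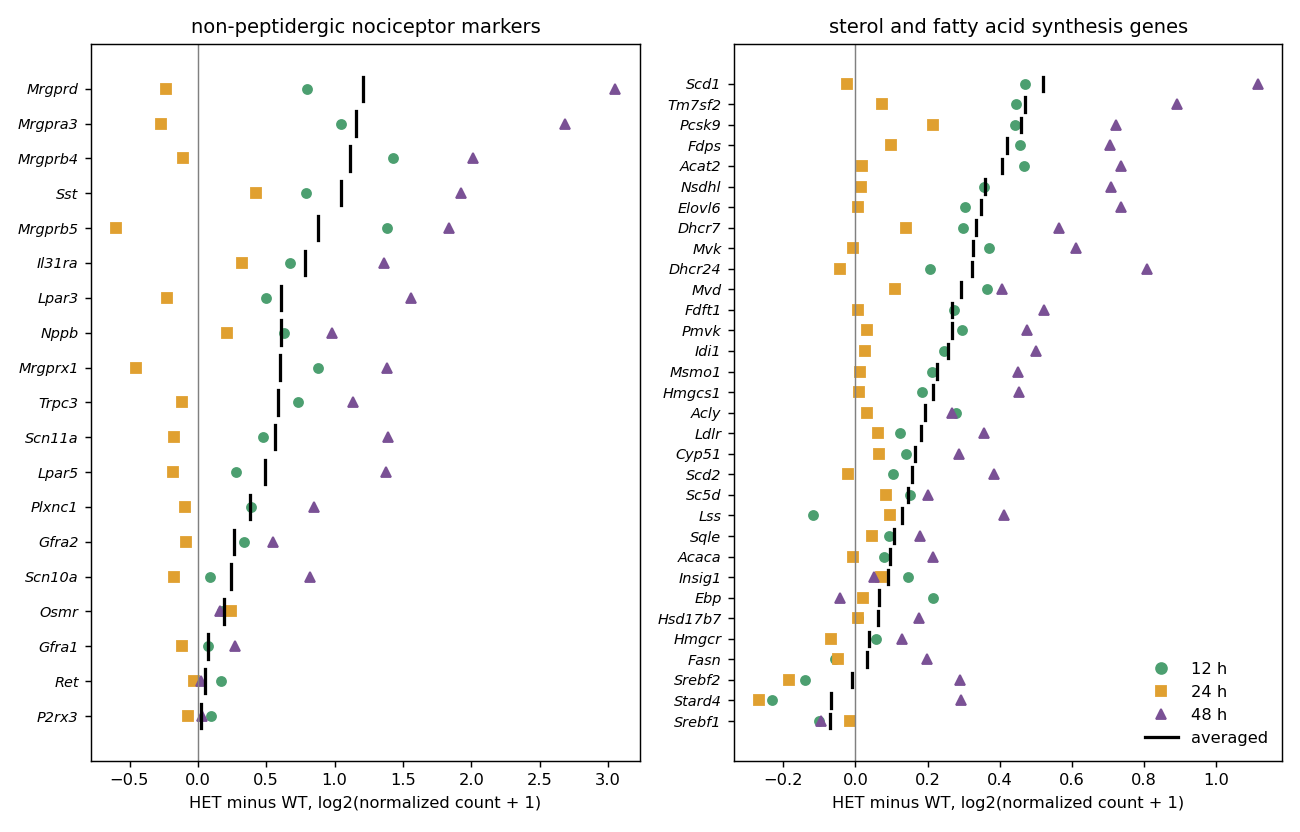
HET minus WT on the log2(normalized count + 1) scale for each measured marker of non-peptidergic nociceptors (left) and each sterol and fatty acid synthesis gene (right); symbols give the mean of 3 cultures per genotype at 12, 24 and 48 h and the black bar the average over times. The 48 h symbol lies farthest right for 16 of 19 genes on the left, other than Osmr, P2rx3 and Ret, and for 28 of 32 on the right, other than Ebp, Srebf1, Insig1 and Acly; Mrgprd reaches 3.05 and Scd1 1.12.

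Cell cycle genes, which mark dividing cells and not mature neurons, lay below 0 in 31 of 32 members, 10 of them with an unadjusted p under 0.05. Their median was -0.27, or -0.17, 0.11 and -0.71 in order of time, and -0.12 without the HET culture numbered 3 at 48 h. Uhrf1, which maintains DNA methylation at replication, stood at -0.71 (SE 0.29), with -0.97, 0.58 and -1.75 in order of time. Its 48 h pairs stood at -1.04, -1.88 and -2.33 for numbers 1, 2 and 3. The thymidylate synthase Tyms stood at -0.55 (SE 0.17) and the replication factor 2810417H13Rik at -1.28 (SE 0.54). The mitotic kinesin Kif4, counted among the kinesins, stood at -1.01 (SE 0.32), with 8 of 9 pairs below 0. Uhrf1, Tyms, 2810417H13Rik and Kif4 were named after their values were seen.

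No marker of the other cells listed here passed the adjusted threshold, and their part in the results was not tested. Fibroblast markers had a median of -0.20 with 7 of 20 above 0, or -0.074 without the HET culture numbered 3 at 48 h. Macrophage markers had a median of -0.12 with 5 of 18 above 0, or -0.009 without the HET culture numbered 1 at 24 h. Endothelial and mural markers had one of -0.11 with 4 of 18 above 0. Schwann cell markers stood at -0.039 and satellite glia markers at -0.006. Among fibroblast genes the collagen Col5a2 stood at -0.59 (SE 0.22) and the matrix protein Fbln2 at -0.48 (SE 0.21), with 24 h differences of 0.18 and 0.091 against -1.28 and -0.99 at 48 h. Both were named after their values were seen.

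Markers of neutrophils and red cells, which reach a culture with the blood in the tissue, had the largest list median of all, 1.08, with 12 of 13 above 0 and 5 at an unadjusted p under 0.05. The 9 pair medians were uneven, with 2.96, 2.18 and 3.56 for number 5 at 12 h, number 5 at 24 h and number 3 at 48 h, against -0.96 to 1.06 for the other 6 pairs. Without the HET culture numbered 3 at 48 h the list median was 0.71. The summed level at 12 h for number 5 was 9.83 FPKM in WT and 120 FPKM in HET. Slc4a1, the anion exchanger of red cells, stood at 1.35 (SE 0.43), and S100a9, a calcium-binding protein of neutrophils, at 1.31 (SE 0.74), both named after their values were seen.

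The remaining partners of Dynlrb1 in the dynein complex mostly lay slightly above WT. Of 16 dynein chains and regulators 12 lay above 0, and the median was 0.075. That share was not particular to dynein. Oxidative phosphorylation and proteasome subunits had 55 of 75 and 23 of 31 above 0, at medians of 0.030 and 0.028. At an unadjusted p under 0.05, 5 were higher (31.2%, against 5.33% of all genes) and 0 lower. The paralog Dynlrb2, at 0.36 FPKM in WT and 0.55 FPKM in HET, stood at 0.66 (SE 0.29, adjusted p 0.335) with 7 of 9 pairs above 0. Its level remained far under that of Dynlrb1 in both genotypes. The intermediate chains Dync1i1 and Dync1i2 stood at 0.21 (SE 0.077) and 0.14 (SE 0.061), the light chain Dynlt3 at 0.22 (SE 0.080) and the light intermediate chain Dync1li2 at 0.084 (SE 0.039). The heavy chain Dync1h1 lay lower, at -0.17 (SE 0.11) with 2 of 9 pairs above 0, as did the light chain Dynll2 at -0.22 (SE 0.21). Members of this list were named after their values were seen.

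Of the 12 subunits of dynactin, the complex that tethers dynein to cargo and microtubules, 11 lay above 0 and the median was 0.072. At an unadjusted p under 0.05, 3 were higher (25.0%, against 5.33% of all genes) and 0 lower. Actr1b, a beta-centractin of the dynactin filament, kept one sign in all 9 pairs at 0.14 (SE 0.056, adjusted p 0.325), from 11490 to 15020 normalized counts in WT and from 12590 to 16570 in HET. Dctn4 (p62) stood at 0.11 (SE 0.049) and Capza1, the capping protein alpha subunit, at 0.12 (SE 0.056), both named after their values were seen. Dynein cargo adaptors had a median of -0.009 and kinesins one of -0.030, and no member of either list passed the threshold.

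The genes beside Dynlrb1 on chromosome 2 gave a further look at the targeted locus. The 5 nearest measured genes on each side, Chmp4b, Raly, Eif2s2, Ahcy, Itch, Map1lc3a, Pigu, Trp53inp2, Ncoa6 and Ggt7, had averaged differences from -0.35 (Ncoa6, SE 0.18) to 0.092 (Chmp4b, SE 0.046), and none passed. Chmp4b, an ESCRT-III subunit, was above 0 in 9 of 9 pairs.

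Lists of cellular upkeep stayed near the median of all genes. The medians were 0.021 for 77 cytosolic ribosomal protein genes, 0.030 for 75 subunits of oxidative phosphorylation, 0.028 for 31 proteasome subunits and 0.001 for 31 lysosomal genes. The medians of ribosomal protein genes were 0.047, 0.11 and -0.11 in order of time. Heat shock proteins and chaperones stood at 0.034, integrated stress response genes at 0.066 and apoptosis genes at -0.057. Trim17, a ubiquitin ligase known to promote neuronal apoptosis, stood apart from its list at 0.66 (SE 0.14, adjusted p 0.31), with 0.51, 0.005 and 1.46 in order of time, and was named after its values were seen.

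The 35 regeneration-associated genes, which axon injury is known to induce in DRG neurons, were split, with 17 above 0, 5 higher and 7 lower at an unadjusted p under 0.05, and a median of -0.002. Npy, the injury-induced neuropeptide Y, named after its value was seen, had the lowest value of that list at -1.31 (SE 0.42, adjusted p 0.31). At 48 h it stood at -2.93, with pairs at -1.95, -3.06 and -3.77 for numbers 1, 2 and 3. Synaptic vesicle release genes had a median of 0.034, and their member Napa (alpha-SNAP, which recycles SNARE complexes) kept one sign in all 9 pairs at 0.084 (SE 0.048, adjusted p 0.444). Voltage-gated sodium and potassium channels stood at 0.022, or -0.087, -0.10 and 0.26 in order of time. Of these 39 genes, 8 were higher and 4 lower at an unadjusted p under 0.05 (30.8%, against 13.5% of all genes). Tubulins and microtubule-associated genes stood at 0.043, with 2 of 38 higher and 5 lower at that level. Hox genes stood at -0.10.

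**Figure D5:**
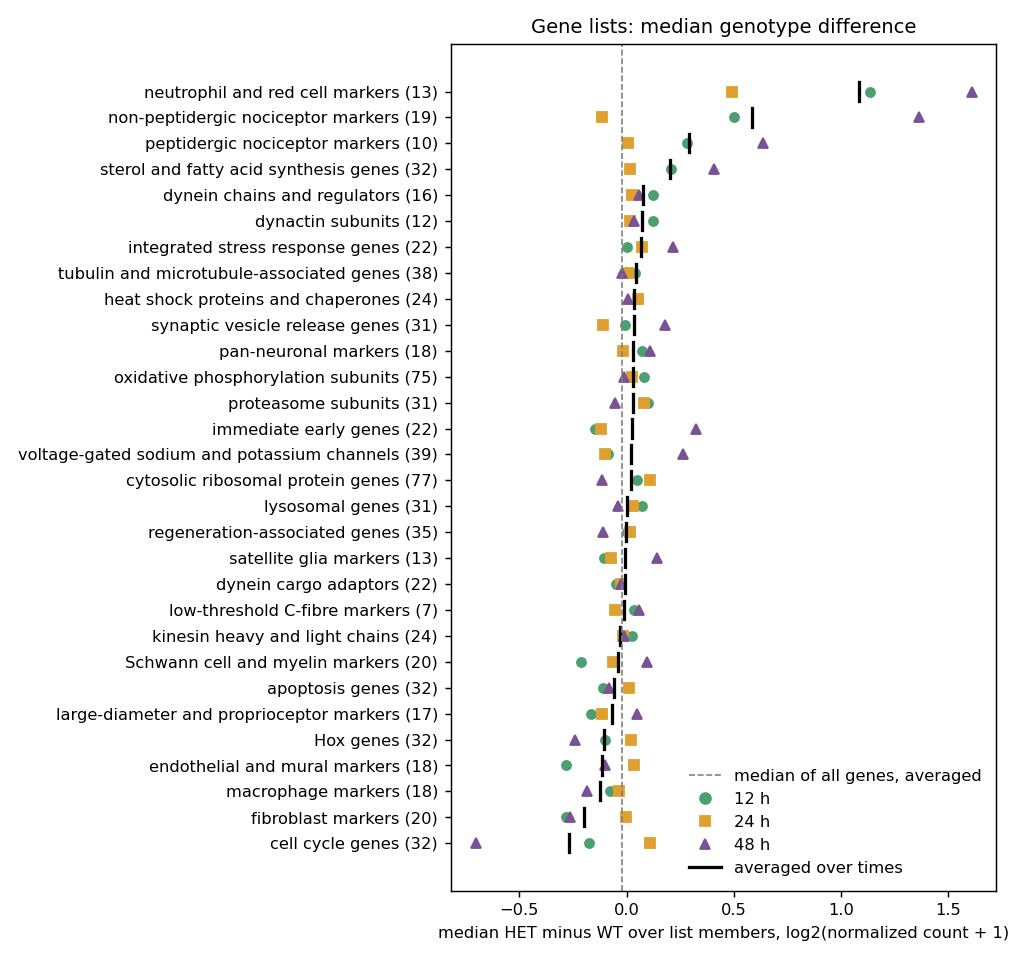
Median HET-minus-WT difference over the measured members of gene lists (number in brackets), at 12, 24 and 48 h and averaged (black bar), on the log2(normalized count + 1) scale. The list of 2 sex-linked genes, with an averaged median of 0.32, is not shown. The dashed line is the averaged median of all genes, -0.021. Among the lists shown, neutrophil and red cell markers and nociceptor markers lie highest, cell cycle genes lowest, and most others lie near the line.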

How the data were processed

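RNA from 18 cultures had been sequenced, and 1 deposited table of 17198 genes (16529 with an Ensembl ID) was used. The submitters' processing notes name CASAVA 1.8.2, edgeR and mm10; aligner, counter, strand and annotation are not given in the sources used here. Per the file headers, the authors deposited normalized counts (a signal, neither whole nor raw), plain adjusted columns of the same kind, FPKM, and log2 fold changes with p-values. The depth is unknown, so no interval or floor is given. On the log2 scale the plain adjusted columns span 15 of 17 possible dimensions, and the step behind this is not given in the sources used here. Of the averaged contrast, 1.04% lies in the 2 unspanned directions. The normalized counts were not examined in this way. 24 further ratio columns were not used.

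Since the values were not counts, log2(normalized count + 1) was fitted in limma 3.58.1 (R 4.3.3) with 1 coefficient per group (12 residual, 4.97 prior degrees of freedom, eBayes with trend), and p-values were adjusted by Benjamini-Hochberg over all genes (threshold 0.05). A minimum mean of 1 removed 0 genes. Simulated data with 17198 genes held 100 changes of 0.5 and 100 of 1 (log2), with spread drawn independently for each gene. The averaged fit recovered 54% of the changes of 0.5 and 86% of those of 1, with 4 false calls. Where few genes pass, as in the real data, the adjustment is stricter, so these shares need not hold there.

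Members and lists were chosen with earlier results of these data known. Named by rule were Dynlrb1, called genes, the 12 higher and 12 lower one-sign genes of largest difference with a mean of at least 50, the 5 tightest and 5 loosest one-sign genes, one-sign list members and 5 measured genes on each side of Dynlrb1; others are marked. 1 lower one-sign gene is not reported here. Positions are from GENCODE M21 (GRCm38, the same assembly as mm10).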

Additional observations from a re-analysis of the deposited data

Results flagged for a closer look

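Of 85 genes named, 11 had 1 pair difference whose distance to the nearest of the other 8 was large for the range of all 9 (Dixon's criterion at 95%, which chance meets in about 1 of 20 sets). In 10 of them it was the 48 h pair numbered 3. Those values, HET minus WT on the log2 scale, were -1.49 for Slc15a2, 3.42 for Igf2, 1.60 for Tmem45b, 1.06 for Mafk, 1.05 for Bzw2, 0.77 for Golga7b, -1.93 for Tbx3, 0.70 for Tmbim6, -1.23 for Hip1 and 0.83 for Rnf185. Slc15a2 alone lay opposite to its other 8 pairs, and the rest lay farther out in their own direction. In all of these but Slc15a2, the HET culture of that pair lay outside the range of the other 48 h cultures. Its Tmbim6 count was 19930, against 10130 to 12230 in the other 48 h cultures and 18330 to 19870 at 24 h. For Hip1 these values were 2089, 4913 to 6404 and 2245 to 2556. For Mafk they were 5672, 2242 to 2780 and 4881 to 5494. For Bzw2 they were 3977, 1568 to 2055 and 3303 to 4032, and for Tbx3 346, 1222 to 2437 and 316 to 481. Outside these flagged genes, Mrgprd stood at 6163 in this culture, against 73.1 to 839 in the other 48 h cultures. It ran from 1069 to 2540 at 24 h and from 3150 to 13030 at 12 h. Why this culture stood nearer to earlier times in these genes was not tested, and 48 h differences of genes that change with time include it. In the eleventh gene, Lor, it was the 48 h pair numbered 2, at -1.61. In the 48 h pair numbered 3, Xist with Tsix and the markers of neutrophils and red cells were also higher in HET, as given with the results; their part was not tested.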

How the results depend on the processing

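The number of genes past the threshold was 3 in each of the 18 fits that left out 1 culture (from 3 to 3), and with either other pseudocount (0.1 or 10), a minimum mean of 5, the plain adjusted columns or the unspanned directions as covariates; it was 4 after quantile normalization, 1 without 12 h, 2 without 24 h and 3 without 48 h. One sign in every pair was kept by 378, 2519 and 705 genes without 12, 24 and 48 h and by 180 to 726 when 1 culture was left out, where fewer pairs have to agree in sign. Groups apart at all times numbered 44, 416 and 62 genes without 12, 24 and 48 h and 9 to 49 when 1 culture was left out. In those settings fewer cultures have to lie apart. The number was 13 on the plain adjusted columns and 11 after quantile normalization. These alternatives were added after seeing the data. The test of change with time called from 0 to 0 genes in all leave-outs.

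Replicate numbers were not shown to pair the cultures: deviations from the group mean of same-numbered cultures correlated at -0.21 to 0.46 (mean 0.17), over 0.1 in 7 of 9 pairs, and 6 of 9 HET cultures correlated best with their own number. Xist with Tsix had a like summed level within each number at 12 and 24 h, but not in numbers 2 and 3 at 48 h. With the replicate block (6 residual degrees of freedom) 553 genes passed, 209 higher and 344 lower, and 227 changed with time; with the unspanned directions as covariates besides, an alternative added after seeing the data, 252 passed, 114 higher and 138 lower, and 0 changed with time. Of the 85 named genes, 45 more passed with the block and 23 more with both.

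Without 48 h the averaged difference changed sign for Ahcy (0.071), Ggt7 (0.023) and Trp53inp2 (-0.23). Trp53inp2, at 0.015, also changed sign with the block and the unspanned directions (-0.038) and in 7 leave-outs, which ran from -0.054 to 0.088. Of the 31 list medians, 5 changed sign without 12 h (tubulins at -0.008, Schwann cell markers at 0.048, satellite glia, low-threshold C-fibre and lysosomal lists), 5 without 24 h (ribosomal proteins at -0.022, proteasome, regeneration-associated, satellite glia and low-threshold C-fibre lists) and 5 without 48 h (sex-linked genes at -0.070, synaptic vesicle release at -0.054, channels at -0.083, immediate early and regeneration-associated lists). A minimum of 0 left the tested genes as they were. DESeq2 was not run, since the values are not counts.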
